A study of Saccharomyces cerevisiae with 6 samples.

Results

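The Ras-PKA pathway and its stress factors were examined through 9 genes, namely the Ras GTPase genes RAS1 and RAS2, the protein kinase A genes TPK2, TPK3 and BCY1, the cAMP phosphodiesterase genes PDE1 and PDE2, and the transcription factor genes MSN2 and MSN4. They were taken by name from the 6442 genes listed, and all 9 were counted in every library and passed the filter on low counts. RNA was sequenced from 2 strains of Saccharomyces cerevisiae, with 3 libraries of each. The strain yJBH000, labelled H0, is a haploid that carries the synthetic chromosome synV with the carotenoid genes crtE, crtI and crtYB and a LEU2 marker at CAN1. The strain yJBH012, labelled S3, is 1 clone obtained from yJBH000 by SCRaMbLE, the recombination of loxPsym sites by Cre. Cre was switched on with galactose and estradiol. By the study's methods, colonies darker than the parent were picked, and the study states that its strains were selected for high carotenoid production. The methods name BY4741, a MATa strain, as the starting host. The labels describe both groups in the same words, as synV yeast with a rearranged genome, and the strains were assigned from the study's methods. They give 12 h of flask culture at 30 °C and 250 rpm, and the study's methods give growth in YPD medium to exponential phase.

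The libraries held 17675299 to 25333938 counts. By its description yJBH012 lacks VAC8 and the neighbouring YEL014C, which checks the labels against the parent. The study reports the same loss in the other darker haploid clones it sequenced, so the check cannot tell yJBH012 from them. VAC8 had 2216 to 2532 counts in yJBH000 and 0, 0 and 1 in yJBH012. YEL014C had 82 to 84 counts in yJBH000 and 0 in each library of yJBH012. The 7 markers of haploid a cells had means of 17.5 (ASG7) to 2864 FPKM (MFA2) in yJBH000 and 14.3 to 4483 in yJBH012, where 2 of them were called higher and 3 lower. The 4 markers of alpha cells had means of 0.973 (MF(ALPHA)1) to 33.7 FPKM (MF(ALPHA)2) and 0.829 to 22.6, so that the ranges of both lists overlapped at ASG7. Replicate 1 of yJBH000 lay apart from replicates 2 and 3 on the second principal component (16.4 against -7.53 and -9.33), which held 6.06% of the variance. For the 9 genes, the value without it is given where leaving it out changed a call or moved the value by a large margin. For other genes it is given for some only.

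In yeast, glucose activates the Ras proteins, which stimulate adenylate cyclase to make cAMP. Cyclic AMP binds Bcy1, the regulatory subunit of protein kinase A, and frees the catalytic subunits, Tpk2 and Tpk3 among them, while the phosphodiesterases Pde1 and Pde2 break cAMP down. The active kinase keeps Msn2 and Msn4 out of the nucleus. When its activity drops, both factors enter the nucleus and bind the stress response element, or STRE (AGGGG, or CCCCT on the other strand), of stress and carbohydrate storage genes. Much of this control acts on proteins, and RNA levels do not measure cAMP, kinase activity or the location of Msn2.

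RAS2, TPK2, MSN2 and BCY1 were higher in yJBH012, and PDE1, PDE2 and TPK3 were lower. The largest differences were those of PDE1, which fell 1.98-fold, and of RAS2 and TPK2, which rose 1.92-fold and 1.85-fold. RAS1 and MSN4 did not pass the test. Thus 7 of the 9 genes passed an adjusted p of 0.05 (edgeR quasi-likelihood F test, with Benjamini-Hochberg correction over 5904 genes), where 70.5% of all genes tested did so. Of all genes, 34.2% were higher and 36.2% lower, against 4 and 3 of the 9. In all 9 genes the libraries of one strain lay above those of the other, as in 75.5% of all genes. The share of changed genes was therefore like that of the whole transcriptome, and the directions and sizes of the single genes carry the description. None of the 9 exceeded a log2 fold change of 1 in either direction, a size passed by 10.7% of all genes as an increase and 4.98% as a decrease. The median log2 fold change was 0.25 over the 9 genes and -0.01 over all genes. The value for the 9 genes was 0.12 without replicate 1 of yJBH000 and -0.085 with total-count scaling.

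These values depend on how the libraries were scaled. CPM are counts divided by a library size that the TMM method adjusts so that the bulk of genes are equal. With scaling by the total count alone the median over all genes was -0.35. Then 3 of the 9 genes were higher and 4 lower, where 19.4% of all genes were higher and 57.6% lower. BCY1 did not pass at this scaling, MSN4 passed as a decrease, and RAS1 changed sign without passing. Set against that median, an alternative added after the data were seen, BCY1 was at 0.45 and TPK3 at -0.32, and all 9 genes had the same sign as with TMM factors. These shifted values were not tested. Subtracting the median sets the bulk of genes equal, as TMM does, so it is no independent check of the scaling. With either scaling the values are relative to other RNA of the same library, so a change in total RNA per cell would not be seen.

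**Figure D1:**
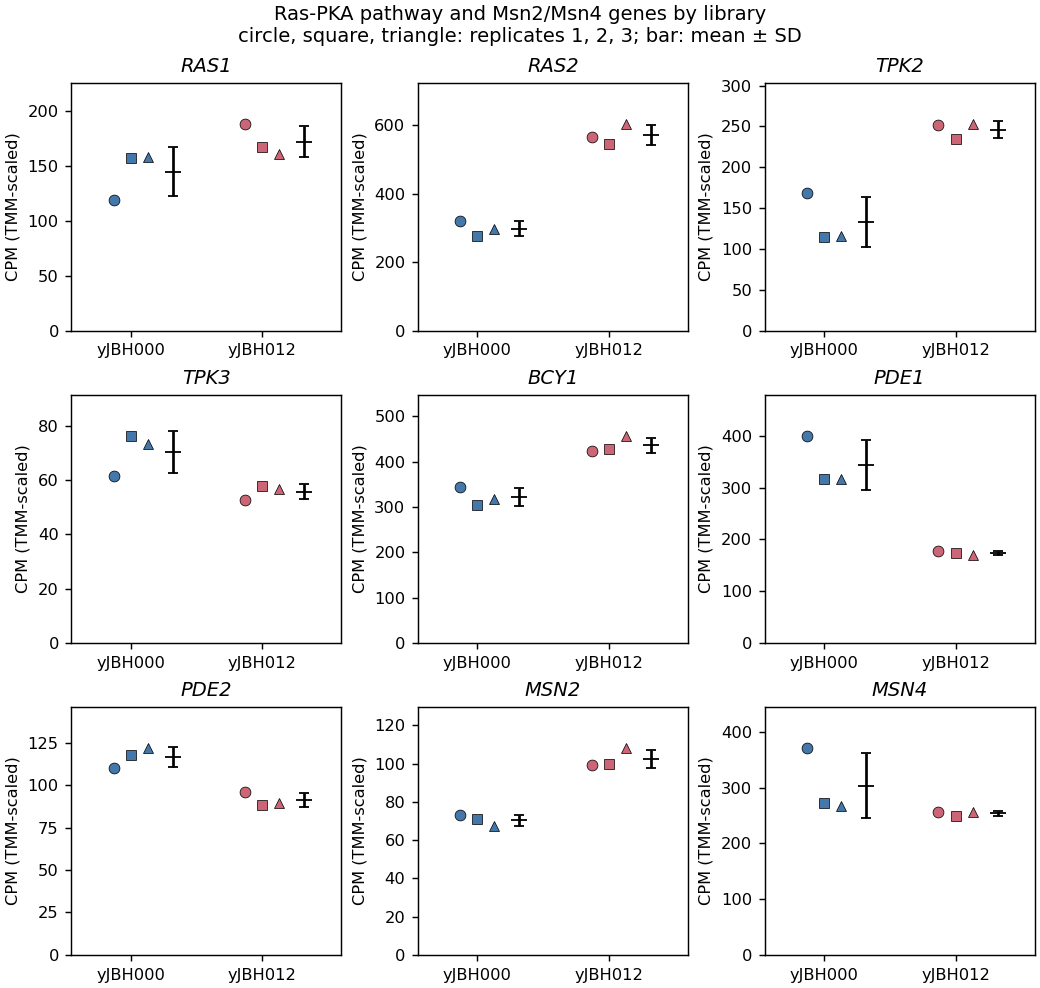
TMM-scaled CPM (vertical axis, from 0) of each of the 9 genes in the 3 libraries of yJBH000 (blue) and the 3 of yJBH012 (red). Symbols mark replicates 1 to 3 and the bar gives the mean ± SD; the strains do not overlap in any panel, and replicate 1 of yJBH000 stands apart in RAS1, TPK2, TPK3, PDE1 and MSN4.

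The Ras proteins are small GTPases that carry the glucose signal to adenylate cyclase, and yeast needs at least one of them to grow. RAS2 had 321, 277 and 296 CPM in yJBH000 (replicates 1 to 3, the order used throughout) and 567, 545 and 603 in yJBH012. Every library of yJBH012 was well above every library of yJBH000. RAS2 rose by 0.94 ± 0.08 on the log2 scale (SE of the fit; edgeR, Benjamini-Hochberg adjusted p = 3.44e-05, higher in 3 of 3 libraries), and by 0.60 with total-count scaling, which also passed.

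RAS1, the paralog, had 119, 157 and 158 CPM in yJBH000 and 188, 167 and 161 in yJBH012. The libraries did not overlap, but the gap between the highest of yJBH000 and the lowest of yJBH012 was small beside the spread within each strain. At 0.25 ± 0.12 on the log2 scale it did not pass (SE; edgeR, Benjamini-Hochberg adjusted p = 0.0973), and the value was 0.12 without replicate 1 of yJBH000. With total-count scaling it was -0.08, and the FPKM values of the strains overlapped.

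RAS2 lies on chromosome XIV from 439602 to 440570 on the minus strand and RAS1 on chromosome XV from 515244 to 516173 on the plus strand, in the R64 assembly. Each is a single exon, and neither overlaps another annotated gene. Over 515 aligned bases they share 74.2% of their sequence, and the longest run of identical bases is 17.

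The region before RAS2 was examined for STRE, both strands together. No match lay in the 250 bases before its start codon or the first 50 bases after it, and 5 lay in the 600 bases before the start codon. Of these, 4 fell outside any annotated gene, and the fifth lay inside PLS1. The stretch that holds all 5 (chrXIV:440874-441049, minus strand, R64, RefSeq) runs from 479 to 304 bases before the start codon and is shown because it has more matches than that of any other of the 9 genes. Capitals mark the elements.
RAS2: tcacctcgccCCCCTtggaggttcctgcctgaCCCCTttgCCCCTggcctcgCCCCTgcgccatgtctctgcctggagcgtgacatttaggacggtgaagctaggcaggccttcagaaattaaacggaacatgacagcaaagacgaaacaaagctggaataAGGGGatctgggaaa
Of all genes, 39.6% had at least 1 match in a window of 600 bases, and of the 9 genes 6 had one. RAS1, TPK2, PDE1, PDE2 and MSN2 had 1 match each, and TPK3, BCY1 and MSN4 had 0. A match is a run of letters and was not tested as a binding site.

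TPK2 and TPK3 encode catalytic subunits of protein kinase A, and they moved in opposite directions. TPK2 had 168, 115 and 116 CPM in yJBH000 and 251, 234 and 253 in yJBH012. Replicate 1 of yJBH000 was higher than the other replicates of that strain, and all 3 libraries of yJBH012 were higher still. The rise came to 0.89 ± 0.15 on the log2 scale (SE; edgeR, Benjamini-Hochberg adjusted p = 0.00119, 3 of 3 libraries). Without replicate 1 of yJBH000 it was 1.09.

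TPK3 had 61.7, 76.1 and 73.1 CPM in yJBH000 and 52.5, 58.0 and 56.6 in yJBH012. Its levels were lower in yJBH012 in every library, with replicate 1 of yJBH000 nearest to that strain. TPK3 fell by 0.34 on the log2 scale (SE 0.09; edgeR, Benjamini-Hochberg adjusted p = 0.0105, lower in 3 of 3 libraries). The decrease was 0.42 without replicate 1 of yJBH000.

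TPK2 and TPK3 are relatives, and they share 70.1% of their sequence over 937 aligned bases with a longest identical run of 14 bases. TPK2 lies on chromosome XVI from 166256 to 167398 on the plus strand and TPK3 on chromosome XI from 134509 to 135705 on the minus strand.

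BCY1, on chromosome IX from 290419 to 291669, encodes the regulatory subunit that holds the catalytic subunits inactive until cAMP binds. It had 344, 304 and 317 CPM in yJBH000 and 424, 427 and 456 in yJBH012. All libraries of yJBH012 were above those of yJBH000. BCY1 rose by 0.44 ± 0.07 on the log2 scale (SE; edgeR, Benjamini-Hochberg adjusted p = 8.55e-04, 3 of 3 libraries). With total-count scaling the value was 0.10 and did not pass (edgeR, adjusted p = 0.224), and the FPKM ranges of the strains overlapped.

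Both phosphodiesterase genes were lower in yJBH012. PDE1 encodes the low-affinity enzyme, and it had 399, 317 and 316 CPM in yJBH000 and 177, 174 and 169 in yJBH012. The strains were far apart, and within yJBH000 replicate 1 was the highest. PDE1 fell by 0.99 on the log2 scale (SE 0.10; edgeR, Benjamini-Hochberg adjusted p = 8.55e-05, lower in 3 of 3 libraries). The decrease was 0.87 without replicate 1 of yJBH000 and 1.32 with total-count scaling.

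PDE2 encodes the high-affinity enzyme. It had 110, 118 and 122 CPM in yJBH000 and 95.8, 88.2 and 89.2 in yJBH012. The libraries of yJBH012 were all lower, and here replicate 1 of yJBH000 was nearest to them. PDE2 fell by 0.35 on the log2 scale (SE 0.06; edgeR, Benjamini-Hochberg adjusted p = 0.00128, lower in 3 of 3 libraries), and by 0.69 with total-count scaling.

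PDE1 lies on chromosome VII from 35653 to 36762 on the plus strand, and PDE2 on chromosome XV from 1013241 to 1014821 on the minus strand. Of the 9 genes, PDE1 alone had an STRE in the 300 bases from 250 before to 50 after the start codon, where 21.6% of 5979 promoters had at least 1. The stretch is shown with the element in capitals, which begins 26 bases before the start codon (chrVII:35403-35702, plus strand, R64, RefSeq).
PDE1: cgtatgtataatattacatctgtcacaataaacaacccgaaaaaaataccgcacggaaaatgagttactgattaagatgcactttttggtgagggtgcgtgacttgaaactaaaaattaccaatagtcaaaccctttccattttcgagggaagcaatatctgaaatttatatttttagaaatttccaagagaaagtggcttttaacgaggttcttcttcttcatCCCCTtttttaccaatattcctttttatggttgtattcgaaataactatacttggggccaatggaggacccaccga
The pattern of log2 CPM over the 6 libraries that was most like that of PDE1 was found for SSL1, RLM1 and FSH2, each with Pearson r = 0.999. The points share the difference between the strains, and 1037 genes had an r above 0.95, so this closeness is a description only.

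MSN2 and MSN4 encode zinc finger factors with overlapping roles in the general stress response. MSN2 had 73.0, 70.9 and 67.4 CPM in yJBH000 and 99.3, 99.9 and 108 in yJBH012. Replicates lay close together in both strains, and those of yJBH012 were all higher. MSN2 rose by 0.54 ± 0.06 on the log2 scale (SE; edgeR, Benjamini-Hochberg adjusted p = 1.20e-04, 3 of 3 libraries). With total-count scaling the rise was 0.20 and still passed (edgeR, adjusted p = 0.0158).

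MSN4 had 370, 272 and 267 CPM in yJBH000 and 256, 249 and 257 in yJBH012. Replicate 1 of yJBH000 was far above all others, and the remaining replicates of yJBH000 were slightly above yJBH012. At -0.26 ± 0.13 on the log2 scale it did not pass (SE; edgeR, Benjamini-Hochberg adjusted p = 0.102). It passed narrowly at -0.09 without replicate 1 of yJBH000 and at -0.34 without replicate 3 (edgeR, adjusted p = 0.0495 and 0.0498), and with total-count scaling it was -0.59 (adjusted p = 0.00416).

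MSN2 lies on chromosome XIII from 344403 to 346517 on the minus strand and MSN4 on chromosome XI from 323228 to 325120 on the plus strand. They align over only 137 bases, with 75.9% identity and a longest identical run of 12 bases.

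**Figure D2:**
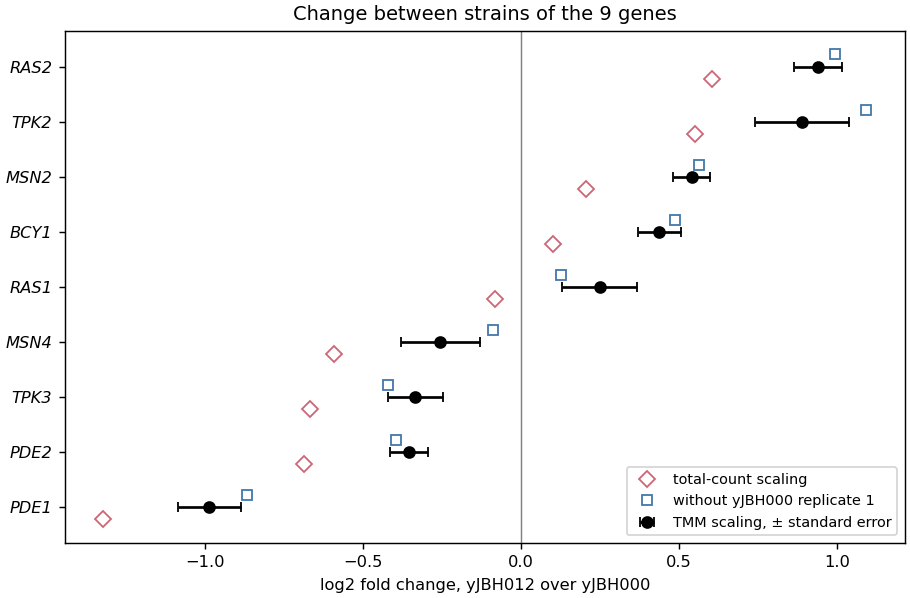
Log2 fold change of yJBH012 over yJBH000 (horizontal axis) for the 9 genes with TMM scaling (black, ± standard error), with total-count scaling (red diamonds) and without replicate 1 of yJBH000 (blue squares). Total-count scaling moves all genes to the left by a like amount, so that RAS1 passes 0, and leaving out replicate 1 brings MSN4 near 0 at -0.09.

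The order of the 9 genes was compared on the FPKM scale, counts per length of gene and library total, since only values per length can be set beside each other between genes. In yJBH000, PDE1 (348 ± 52.9 FPKM) and RAS2 (346 ± 29.4) were the highest and their ranges overlapped, followed by BCY1 (289 ± 21.6; SD, n = 3 each). MSN4 (180 ± 36.9), RAS1 (175 ± 24.9) and TPK2 (131, from 112 to 168) came next, with overlapping ranges between neighbours. PDE2, TPK3 and MSN2 were the lowest, at 82.7, 65.9 and 37.4 FPKM, each apart from the next.

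In yJBH012, RAS2 stood first at 525 ± 23.3 FPKM, before BCY1 (310 ± 10.8), TPK2 (192 ± 6.79) and RAS1 (165 ± 13.6; SD, n = 3 each). PDE1 had moved to the fifth place at 139 ± 3.70 FPKM, before MSN4 at 119 ± 1.31 and PDE2 at 51.3 ± 2.25. MSN2 (43.1) and TPK3 (41.4) closed the order with overlapping ranges, and no other neighbours overlapped in this strain.

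Ratios of FPKM within a library do not depend on the scaling between libraries, and 5 of them were compared. Each differed between the strains without overlap, which is the limit of what 3 libraries against 3 can show, since the exact permutation test (two-sided) cannot fall below p = 0.1. Every ratio had this value, and Benjamini-Hochberg adjustment over the 5 ratios left it at 0.1. Ratios of other gene pairs were not compared, so the lack of overlap has no background for ratios. Of single genes, 75.5% did not overlap between the strains in CPM.

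RAS1 over RAS2 was 0.387, 0.592 and 0.555 in yJBH000 and 0.346, 0.319 and 0.279 in yJBH012, so that RAS2 exceeded RAS1 in every library and by more in yJBH012. TPK3 over TPK2 was 0.350, 0.633 and 0.603 against 0.199, 0.236 and 0.214, a 2.37-fold lower geometric mean in yJBH012 and the largest difference of the 5. In both ratios replicate 1 of yJBH000 lay nearest to yJBH012.

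PDE1 over PDE2 was 5.17, 3.82 and 3.70 in yJBH000 and 2.63, 2.81 and 2.70 in yJBH012. MSN4 over MSN2 was 5.67, 4.29 and 4.43 against 2.88, 2.78 and 2.66. In both of these replicate 1 of yJBH000 lay farthest from yJBH012, so PDE1 and MSN4, the more abundant RNA of each pair, made up less of their pair in yJBH012 with or without that library.

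BCY1 over the sum of TPK2 and TPK3 was 1.38, 1.48 and 1.56 in yJBH000 and 1.29, 1.35 and 1.36 in yJBH012. The regulatory subunit RNA thus stayed above the summed RNA of TPK2 and TPK3 in all 6 libraries, with a log2 difference of -0.15 between the strains.

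**Figure D3:**
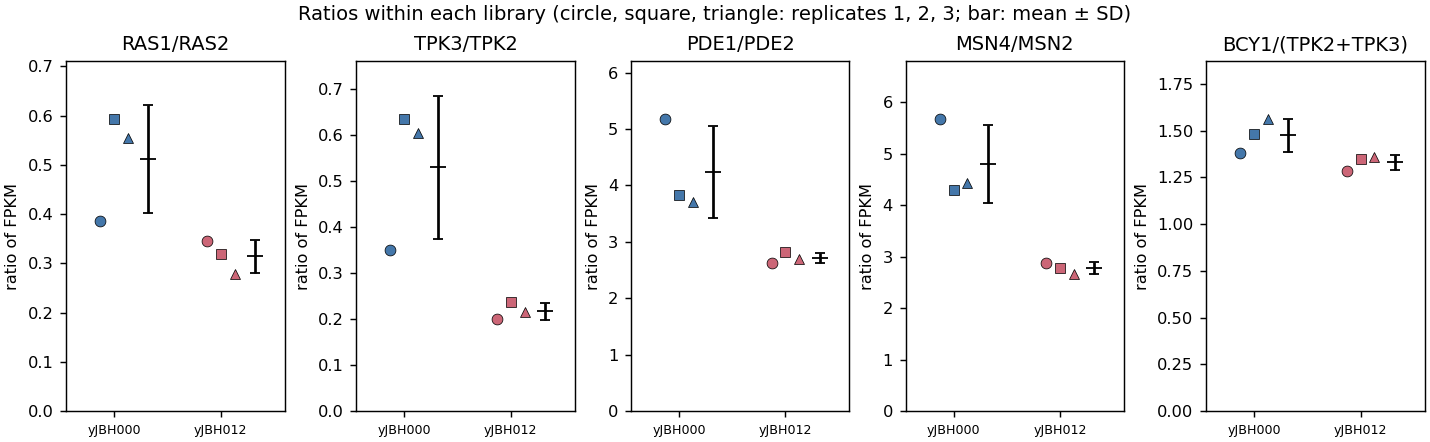
Ratio of FPKM within each library (vertical axis, from 0) for the 5 gene ratios, with yJBH000 in blue and yJBH012 in red. Symbols mark replicates 1 to 3 and the bar the arithmetic mean ± SD; all 5 ratios are lower in every library of yJBH012, and TPK3/TPK2 falls from 0.350 to 0.633 down to 0.199 to 0.236.

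Other genes of the pathway were taken from a list of 33 by role, of which 32 were tested. Of these, 15 were higher and 5 lower in yJBH012 and 12 did not pass, with a median log2 fold change of 0.10. Without replicate 1 of yJBH000, 15 were higher and 8 lower, where 38.3% of all genes were higher and 39.9% lower. The split rested on the scaling, since 8 were higher and 18 lower with total-count scaling. Of the 32 genes, 46.9% were thus higher and 15.6% lower, against 34.2% and 36.2% of all genes, and with total-count scaling 19.4% of all genes were higher and 57.6% lower.

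Upstream of adenylate cyclase, the exchange factor gene CDC25, whose product loads Ras with GTP, stood at -0.20 on the log2 scale. It did not pass (edgeR, Benjamini-Hochberg adjusted p = 0.0554), and without replicate 1 of yJBH000 it passed at -0.26. SDC25, the other exchange factor gene of the list, went the other way. It rose by 0.63 (standard error 0.07; edgeR, Benjamini-Hochberg adjusted p = 1.58e-04). Of the genes for the proteins that switch Ras off, IRA2 rose by 0.50 (standard error 0.06) but did not pass on the log2(FPKM + 1) scale (0.15), and IRA1 stood at 0.08 and did not pass, whereas with total-count scaling IRA1 passed as lower at -0.25. GPA2, the G protein alpha subunit of the glucose receptor branch, rose by 0.67 (standard error 0.13). It did not pass with total-count scaling (0.33). Adenylate cyclase itself, CYR1, stood at -0.15 without passing (-0.091 without replicate 1 of yJBH000), and with total-count scaling it passed at -0.49. SRV2, the cyclase-associated protein, fell by 0.69 (standard error 0.07). These and other genes outside the rule for named genes were singled out for their roles after their values were seen.

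SHR5, a subunit of the palmitoyltransferase that acts on Ras2, stood at 41.4 ± 3.39 CPM in yJBH000 and 90.5 ± 2.99 in yJBH012 (SD, n = 3 each). It rose by 1.13 ± 0.07 on the log2 scale (SE; edgeR, Benjamini-Hochberg adjusted p = 1.13e-05, higher in 3 of 3 libraries). ERF2, listed like SHR5 under Ras lipid modification and processing, stood at 0.00078 and did not pass (edgeR, adjusted p = 0.990). Of the 6 genes of this role, 2 were higher, 1 was lower and 3 did not pass. These were 33.3% higher and 16.7% lower, against 34.2% and 36.2% of all genes.

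Downstream of the kinase, YAK1 had the largest change of the list. It encodes a growth-restraining kinase that opposes protein kinase A and acts on Msn2. It had 220, 147 and 151 CPM in yJBH000 and 466, 428 and 431 in yJBH012, far apart in every library. YAK1 rose by 1.36 ± 0.15 on the log2 scale (SE; edgeR, Benjamini-Hochberg adjusted p = 1.64e-04), and by 1.57 without replicate 1 of yJBH000. SCH9, a growth-promoting kinase that acts in parallel with protein kinase A, fell by 0.82 (standard error 0.06), and RIM15, a kinase that protein kinase A inhibits, fell by 0.36 (standard error 0.06). GIS1, a factor of the post-diauxic response, rose by 0.83 (standard error 0.10).

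IGO1, whose product restrains a phosphatase under Rim15, stood at 309 FPKM in yJBH000, and it rose by 0.43 (standard error 0.06) but did not pass with total-count scaling. WHI2, which acts with the Psr phosphatases in the activation of Msn2, rose by 0.75 (standard error 0.05). BMH1 and BMH2 encode the 14-3-3 proteins and had the highest levels per length of the list, with means of 1376 and 633 FPKM in yJBH000. BMH1 rose by 0.76 (standard error 0.07), and BMH2 stood at -0.02, which did not pass, turned positive without replicate 1 of yJBH000 and passed as lower at -0.36 with total-count scaling.

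**Figure D4:**
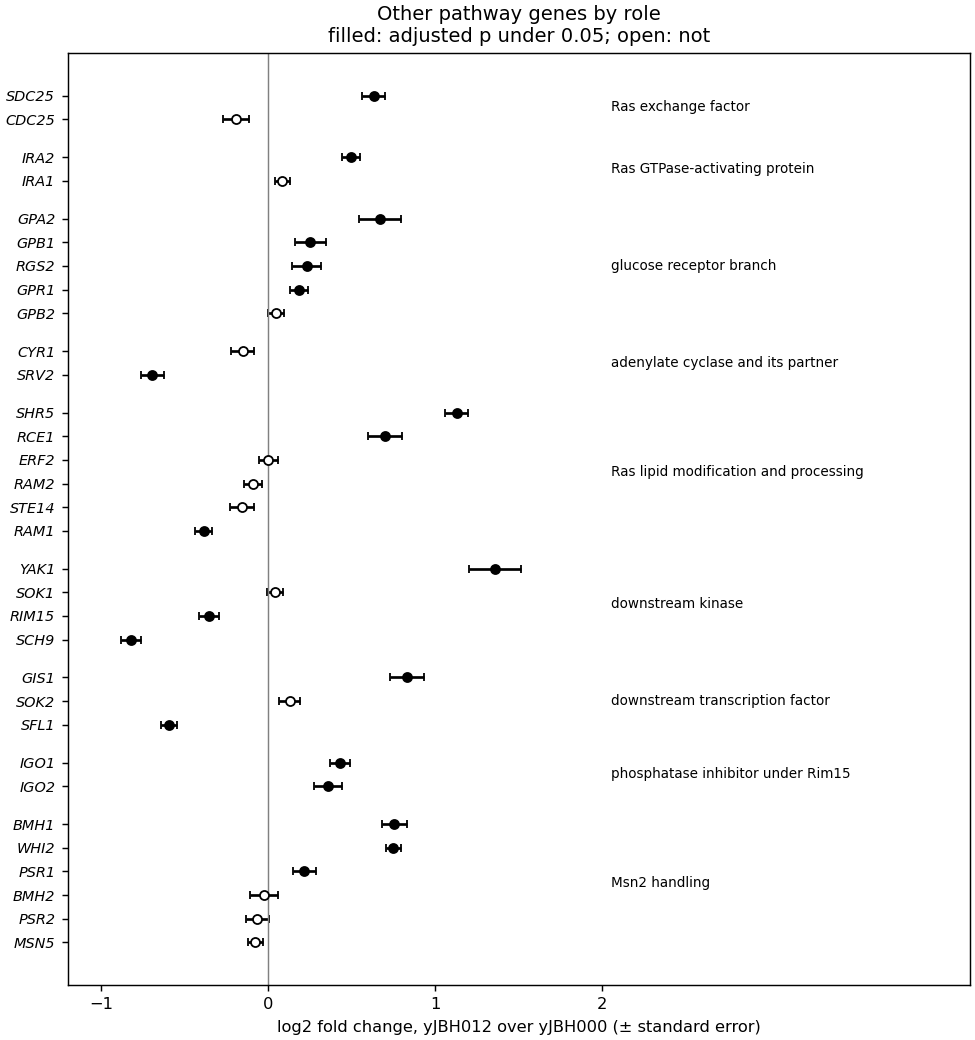
Log2 fold change of yJBH012 over yJBH000 with its standard error (horizontal axis) for the 32 other pathway genes, grouped by role. Filled points have an adjusted p under 0.05; YAK1 at 1.36 and SHR5 at 1.13 are highest and SCH9 at -0.82 is lowest.

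Msn2 and Msn4 act through their target genes, and 29 textbook targets were described. Of these, 24 were higher in yJBH012, 1 was lower and 4 did not pass, and 21 of the 24 rose by more than 1 on the log2 scale. These were 82.8% higher, 3.45% lower and 72.4% higher by more than 1, against 34.2%, 36.2% and 10.7% of all genes. Their median log2 fold change was 1.49, against -0.01 for all genes, and it was 1.79 without replicate 1 of yJBH000. Several of these genes belong to carbohydrate storage and glucose phosphorylation and are also under other controls. The list was chosen with earlier results of these data known, so its shares and median describe the list and are no independent test.

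The 5 largest increases were those of SPI1, a cell wall protein gene induced in stationary phase, GLC3, the glycogen branching enzyme gene, GAC1, which encodes a regulatory subunit of the phosphatase that activates glycogen synthase, PGM2, the main phosphoglucomutase gene, and TPS2, trehalose-phosphate phosphatase. SPI1 had 267, 147 and 160 CPM in yJBH000 and 1496, 1578 and 1490 in yJBH012, a rise of 2.99 ± 0.23 on the log2 scale. GLC3 stood at 2.89 (0.32), GAC1 at 2.79 (0.19), PGM2 at 2.61 (0.28) and TPS2 at 2.48 (0.17), as log2 fold changes with their standard errors, all 3 libraries of yJBH012 being above all of yJBH000. All 7 glycogen genes of the list passed as higher, with a median of 2.45. With total-count scaling 22 of the 29 targets were higher, where 19.4% of all genes were.

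SOD2, the mitochondrial superoxide dismutase gene, was the 1 target that was lower, with 837, 584 and 551 CPM in yJBH000 and 426, 454 and 455 in yJBH012. It fell by 0.56 on the log2 scale (SE 0.16; edgeR, Benjamini-Hochberg adjusted p = 0.0132, lower in 3 of 3 libraries), by 0.35 without replicate 1 of yJBH000, and did not pass without replicate 1 of yJBH012 (edgeR, adjusted p = 0.0566).

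Replicate 1 of yJBH000 stood apart from its own strain in the targets, as it did over all genes on the second principal component. In 29 of 29 targets it was the highest of the 3 libraries of yJBH000. Its median log2 ratio to the mean of replicates 2 and 3 was 0.80, against 1.72 to 1.94 for the libraries of yJBH012. The share of all genes in which replicate 1 was the highest was not counted, so whether this is particular to the targets was not tested. HSP12, a membrane stress protein gene, had 563, 215 and 214 CPM in yJBH000 and 801, 1062 and 939 in yJBH012, and it rose 2.83-fold. On the log2 scale its rise was 2.12 without that library, and that of CTT1, the cytosolic catalase gene, went from 1.37 to 1.73. The 4 targets that did not pass were DDR2, GRE3, PNC1 and CYC7, at 0.57, 0.28, 0.20 and 0.13, and without replicate 1 of yJBH000 they passed at 1.16, 0.48, 0.39 and 0.47. The count of higher targets was then 28, where 38.3% of all genes were higher. Of the 9 genes, 6 were highest and 3 lowest within yJBH000 in that library, again without a count over all genes. The part of replicate 1 in their values was not tested beyond leaving it out.

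**Figure D5:**
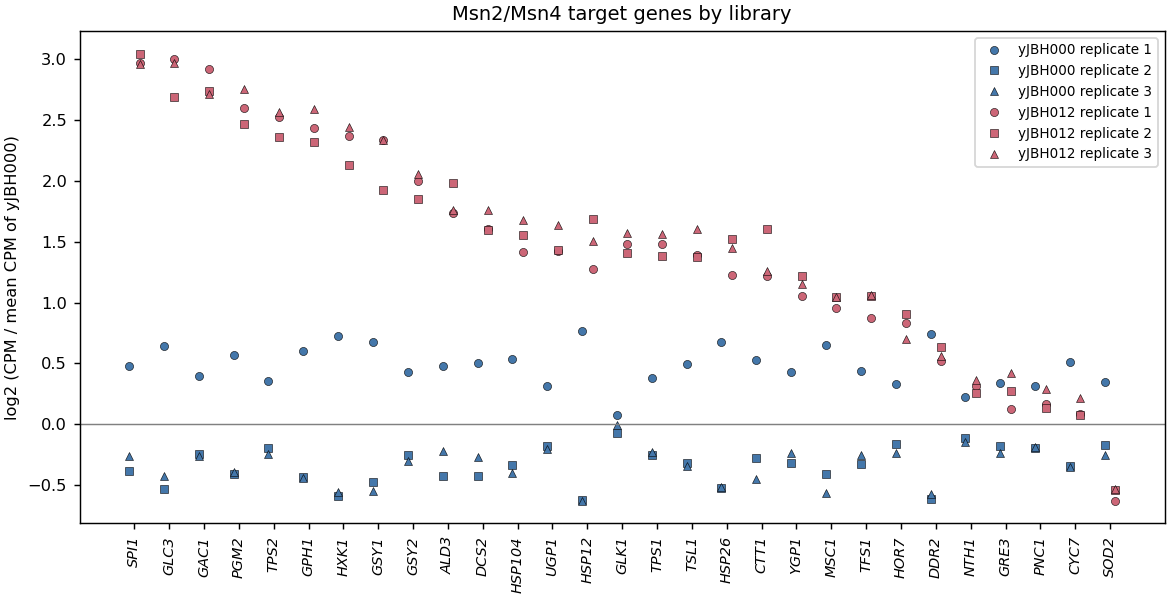
Log2 of CPM over the mean of yJBH000 (vertical axis) for the 29 Msn2/Msn4 targets in order of their change, in each library of yJBH000 (blue) and yJBH012 (red). Replicate 1 of yJBH000 (blue circles) is above the other blue points in every gene, and SOD2 at the right is the only gene with all red points below the blue ones.

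STRE matches were frequent near the start codons of the targets. In the window of 300 bases, 19 of 29 targets had at least 1 match, which is 65.5% against 21.6% of all promoters, and 12 had at least 2. In GLC3, GRE3 and TPS1, 1 match each lay after the start codon, so GLC3 and GRE3 had only 1 before it. The list was chosen for control through this element, so the count describes the list. Among these targets the median log2 fold change was 1.46 for the 19 with a match and 2.26 for the 10 without one. Within 600 bases before the start codon 28 of the 29 targets (96.6%) had a match, so most targets without one in the shorter window held one farther out. In the shorter window the most matches in either list were 3, held by 5 genes. Of these, 3 are shown with the elements in capitals, and they were chosen after their values were seen. TSL1, which encodes a subunit of trehalose synthase, is a target that rose, DDR2 a target that did not pass, and YAK1 the pathway gene with the largest change (chrXIII:70374-70673, plus strand, chrXV:231706-232005, minus strand, and chrX:150341-150640, minus strand, R64, RefSeq).
TSL1: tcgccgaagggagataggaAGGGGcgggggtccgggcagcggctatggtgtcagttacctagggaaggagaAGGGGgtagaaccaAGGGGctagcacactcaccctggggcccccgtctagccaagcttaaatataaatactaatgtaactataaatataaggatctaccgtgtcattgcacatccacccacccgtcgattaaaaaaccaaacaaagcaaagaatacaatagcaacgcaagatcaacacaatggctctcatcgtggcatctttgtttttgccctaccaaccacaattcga
DDR2: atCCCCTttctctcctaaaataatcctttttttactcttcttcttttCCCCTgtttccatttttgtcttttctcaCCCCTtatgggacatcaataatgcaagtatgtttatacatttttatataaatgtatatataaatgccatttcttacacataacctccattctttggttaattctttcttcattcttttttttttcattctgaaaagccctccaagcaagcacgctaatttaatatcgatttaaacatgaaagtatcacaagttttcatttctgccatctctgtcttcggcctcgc
YAK1: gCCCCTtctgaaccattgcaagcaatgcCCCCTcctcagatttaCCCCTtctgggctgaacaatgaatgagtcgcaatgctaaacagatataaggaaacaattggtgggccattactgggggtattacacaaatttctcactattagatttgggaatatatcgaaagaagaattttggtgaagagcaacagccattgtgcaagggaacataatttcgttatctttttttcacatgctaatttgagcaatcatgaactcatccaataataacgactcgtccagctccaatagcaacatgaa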

How the data were processed

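Total RNA of 6 libraries was sequenced, and the authors deposited raw read counts per gene. The authors also deposited FPKM, which scale counts to gene length and library total. The submitters' processing notes name HTSeq 0.6.1 and DESeq 1.18.0; the aligner, genome build and use of strand are not given in the sources used here. Count, FPKM and total gave one length (within 1 base) in 6243 of 6243 genes with counts, and 99.9% of these lengths were R64 exon lengths. Of 6442 identifiers, 6436 matched the R64 gene table, and the 6 others took at most 0.012% of counts.

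The members and lists were chosen with earlier results of these data known. Counts were filtered (filterByExpr), scaled by TMM and tested by glmQLFit and glmQLFTest of edgeR 4.0.16 (R 4.3.3), with Benjamini-Hochberg adjustment over 5904 genes, a threshold of 0.05 and no replicate block. Standard errors were derived from the same model. FPKM ratios were compared by an exact permutation test in scipy 1.17.1. Similar genes were found with BLAST 2.17.0. The procedure was also run on simulated data in which only a small part of the genes changed, up or down. That setting differs from these data and does not bear on the choice of scaling. Named genes are the 9 members, other pathway genes called beyond a log2 fold change of 1, the 3 of these lists with the highest FPKM, the 5 largest called increases and decreases of the targets, and the 3 genes most like the member with the largest change, with VAC8 and YEL014C as checks. Promoters were read from the R64 genome of RefSeq. Alternatives were DESeq2 1.42.0 size factors and Wald test, upper quartile and total-count scaling, other filters, limma-voom, limma 3.58.1 on log2 FPKM with pseudocounts of 1 and 0.1, leaving out each library, and blocking on replicate number.

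No library pair was a duplicate (chi-square per degree of freedom between replicates 7.21 to 86.5). The labels do not say whether replicates came from separate cultures, so p-values measure the spread between these samples, which may be technical. The limits of low counts, here only for VAC8 and YEL014C, cover counting error only. One gene of the pathway list is not reported here.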

Additional observations from a re-analysis of the deposited data

How the results depend on the processing

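Of 36 genes whose log2 fold changes are printed, 30 kept their direction in all 16 alternatives and 21 also their call. SDC25 and ERF2 are not among these 36. RAS1 turned to -0.085 with total-count scaling, -0.077 on log2(FPKM + 1) and -0.077 on log2(FPKM + 0.1). On the same 3 scales, in this order, IRA1 turned to -0.25, -0.23 and -0.25, CYC7 to -0.21, -0.15 and -0.15, PNC1 to -0.14, -0.12 and -0.12, and GRE3 to -0.059, -0.037 and -0.037, as all 3 divide by the total count and move the median of all genes to between -0.35 and -0.33. Leaving out 1 library, BMH2 ran from -0.071 to 0.063 (positive without replicate 1 of yJBH000) and CYC7 from -0.019 to 0.47 (negative without replicate 2 or 3 of yJBH000). The pathway genes called higher were 8 and those called lower 18 on each of these 3 scales, against 15 and 5, and 8 were lower with upper quartile factors. Leaving out 1 library gave 11 to 15 higher and 5 to 8 lower pathway genes, 22 to 28 higher and 0 to 1 lower targets, 4 higher and 3 to 4 lower members. Among the alternatives, shares of all genes called were counted only with total-count scaling and without replicate 1 of yJBH000. The other counts therefore have no such share beside them. A wider sum for the BCY1 ratio is not reported here. Leaving out 1 library or using counts without length, all 5 ratios kept their sign, the change of TPK3/TPK2 running from -1.52 to -1.09.

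The replicate numbers of the strains showed no clear pairing of the libraries. The deviations of same-numbered libraries correlated at -0.01, 0.08 and 0.08 across genes, and libraries did not all correlate best with their own number. Such small correlations cannot settle whether the libraries were paired. With a replicate block, 4 members were higher and 3 lower, 13 pathway genes were higher and 5 lower, and 24 targets were higher and 1 lower. The share of all genes called was not counted with this block.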
